A study of Mus musculus with 9 samples.

Results

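The VEGF and angiopoietin system was followed through 10 genes, selected by their symbols from a table of 52550 genes measured by RNA sequencing of mouse ear dermis. They were the ligands Vegfa, Vegfb, Vegfc and Pgf, the angiopoietins Angpt1 and Angpt2, and the receptors Tek, Kdr, Flt1 and Flt4. Each symbol stood in the table once. The dermis came from wild-type C57BL/6 mice (C57BL/6J in the study's methods) aged 8 weeks, in 3 groups of 3 libraries. The control group (VAS+H2O) had vaseline on the ears and water by gavage, and the model group (IMQ+H2O) had imiquimod cream and water. The treated group (IMQ+XYF) had imiquimod cream and 200 μl of a decoction of Xiao-Yin-Fang, a formula of Chinese herbs, at 23.3 mg/g. All groups were gavaged for 10 days and had cream or vaseline for 5 days. Imiquimod activates a Toll-like receptor and is used to set off psoriasis-like dermatitis.

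VEGF family ligands are secreted proteins that bind receptor tyrosine kinases on endothelial cells. VEGF-A acts through the receptor encoded by Kdr, and the product of Flt1 binds VEGF-A, VEGF-B and placental growth factor and can act as a decoy. VEGF-C signals through the receptor encoded by Flt4, which is prominent on lymphatic endothelium. Angiopoietin-1, made largely by cells around vessels, activates the receptor encoded by Tek and keeps vessels quiet, whereas angiopoietin-2, made by endothelial cells, can block that signal when vessels are remodelled. Widened, elongated dermal capillaries are a known feature of psoriatic skin.

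Total counts ran from 28756305 to 79836881 per library. All 10 genes were counted in every library, with a lowest count of 104 (Pgf in IMQ+XYF replicate 2), and all 10 passed the filter on low counts that left 22430 genes. Dermal origin was checked with 6 fibroblast genes, whose summed level lay between 10367 and 25353 CPM, and with 13 endothelial genes, whose summed level lay between 815 and 2033 CPM. None of the 13 was at 0 in any library. Genes of keratinocytes, which belong to the epidermis, were also present in every library, and in IMQ+XYF replicate 1 the 8 keratinocyte genes summed to 14766 CPM, above the 11198 CPM of its fibroblast genes. CPM, the unit of all levels here, is a gene's count relative to the TMM-scaled size of its library. IMQ+XYF replicate 2 was the lowest of all libraries for Vegfa, Vegfc, Pgf, Angpt2, Tek, Kdr and Flt4. In summed fibroblast and keratinocyte levels, replicate 2 was not the library furthest from the others of its group. For the 10 genes, log2 fold changes between IMQ+XYF and IMQ+H2O are given with and without replicate 2. Leaving out some other library instead took that of Flt4 as low as −1.03 and that of Kdr as low as −0.896. For marker and pathway genes, log2 fold changes in that comparison are given only with replicate 2 included. Whether each library was 1 mouse or a pool was not clear from the methods, so p-values measure the spread between these libraries only. In bulk RNA, fewer endothelial cells and less RNA per endothelial cell cannot be told apart.

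On GRCm38 with GENCODE vM21, Kdr (ENSMUSG00000062960) lies at chr5:75932827-75978458, Flt1 (ENSMUSG00000029648) at chr5:147561604-147726011, Flt4 (ENSMUSG00000020357) at chr11:49609263-49652739 and Tek (ENSMUSG00000006386) at chr4:94739289-94874976. The ligand genes are Vegfa at chr17:46016993-46032369, Vegfb at chr19:6982473-6987651, Vegfc at chr8:54077606-54187096, Pgf at chr12:85166635-85177790, Angpt1 at chr15:42424723-42676977 and Angpt2 at chr8:18690263-18741562. All 10 are protein-coding, and each value sums all isoforms of a gene.

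Promoter sequence is shown for Kdr, Flt1 and Tek, 3 of the 4 receptors. The sequence before the RefSeq start of Flt4 lay inside its annotated gene and is not shown. The lines give 240 bases before the start in RefSeq on GRCm38.p6, 5′ to 3′ on the strand of the gene and without the 10 bases nearest that start, and they lie upstream of every GENCODE transcript of the gene. Kdr lies at chr5:75978466-75978705 (minus strand), Flt1 at chr5:147726022-147726261 (minus strand) and Tek at chr4:94739039-94739278 (plus strand). Capitals mark GGAA on either strand, the core letters bound by ETS factors, which are known regulators of endothelial genes.
Kdr: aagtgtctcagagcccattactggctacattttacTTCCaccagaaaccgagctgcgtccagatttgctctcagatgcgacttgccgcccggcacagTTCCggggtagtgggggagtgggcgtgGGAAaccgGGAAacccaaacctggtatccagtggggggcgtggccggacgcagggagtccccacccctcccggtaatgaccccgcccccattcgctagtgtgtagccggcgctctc
Flt1: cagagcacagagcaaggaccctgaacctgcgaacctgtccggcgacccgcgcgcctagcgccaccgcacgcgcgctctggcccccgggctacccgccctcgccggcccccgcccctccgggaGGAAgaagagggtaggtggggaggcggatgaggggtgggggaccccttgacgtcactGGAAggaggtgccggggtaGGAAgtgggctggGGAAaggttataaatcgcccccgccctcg
Tek: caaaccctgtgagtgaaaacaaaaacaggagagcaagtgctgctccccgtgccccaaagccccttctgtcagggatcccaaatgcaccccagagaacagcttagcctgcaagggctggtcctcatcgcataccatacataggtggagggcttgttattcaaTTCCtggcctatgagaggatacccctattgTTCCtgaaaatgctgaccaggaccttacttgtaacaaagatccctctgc
GGAA stood at 4 places in the Kdr sequence, at 4 in that of Flt1 and at 2 in that of Tek. Of 32851 promoter windows of the same length, 92.7% held it at least once, with a median of 3 places. GGGCGG, the letters bound by Sp1, stood at 2 places for Kdr, 3 for Flt1 and 0 for Tek, and 31.3% of all windows held it. TATAAA stood once, for Flt1, and was held by 12.1% of windows. Both strands were searched, and a GGGCGG can share its last letters with a GGAA that follows it. Windows were found for 8 of the 10 genes. Angpt1 and Angpt2 had none in the table used.

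Levels of different genes were compared per kilobase of exon, as CPM per kilobase. In the control dermis Flt4 had the highest level, 13.9 ± 2.15 CPM per kilobase (SD, n = 3), followed by Vegfa at 12.9 ± 2.63, Tek at 11.1 ± 2.52, Vegfb at 10.3 ± 1.02 and Kdr at 9.10 ± 2.24. Angpt2 followed at 6.77 ± 1.70, Vegfc at 5.29 ± 1.19 and Flt1 at 4.97 ± 2.29. Angpt1 at 2.14 ± 0.349 and Pgf at 1.75 ± 0.403 CPM per kilobase were lowest. Each gene overlapped its neighbour in this order over the 3 control libraries, except that every Flt1 value (2.99 to 7.48) lay above every Angpt1 value (1.83 to 2.52). The order depends on the length used. With the longest transcript in place of all exons, Kdr stood at 13.9 and Flt1 at 9.74 CPM per kilobase, since the exons of their isoforms add up to more than any single transcript.

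**Figure D1:**
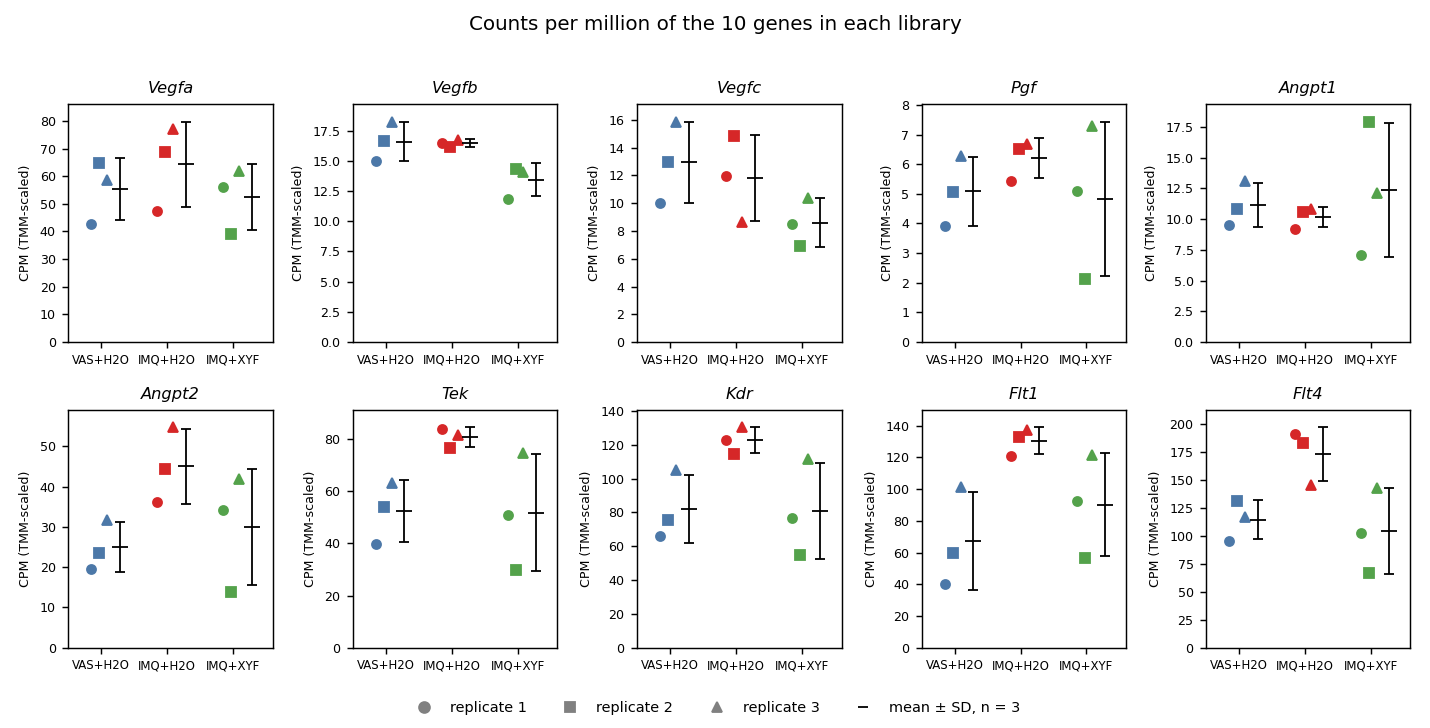
TMM-scaled CPM of each of the 10 genes (y axes, each from 0) in the 9 libraries, by group; symbols are replicates, and the black bar is the mean ± SD of 3 libraries. The IMQ+H2O libraries lie above all VAS+H2O libraries for Angpt2, Tek, Kdr, Flt1 and Flt4, and IMQ+XYF replicate 2 (green square) is lowest of the 9 for Vegfa, Vegfc, Pgf, Angpt2, Tek, Kdr and Flt4.

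The first question was what imiquimod changed in these genes. None of the 10 was called between IMQ+H2O and VAS+H2O, where a call required an adjusted p of 0.05 or lower and a log2 fold change of at least 1 in either direction, against 0.994% of all genes tested. DESeq2's Wald test also called none. At an unadjusted p under 0.05, edgeR's quasi-likelihood test had 3 of the 10 higher (Angpt2, Flt1 and Flt4) and 0 lower, where 10.1% of all genes were higher and 10.8% lower. For 5 of the 10 every IMQ+H2O library was above every VAS+H2O library, namely the 4 receptors and Angpt2. Of all genes, 15.1% were higher and 16.5% lower without overlap. The median log2 fold change of the 10 was 0.43, against −0.023 for all genes tested, and it was 0.61 for the 4 receptors and 0.10 for the 4 VEGF family ligands. These directions hold for TMM scaling, and scaling to endothelial counts turned Angpt2, Tek, Kdr, Flt4, Vegfa and Pgf below 0, as described further on.

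Flt1 encodes the high-affinity VEGF-A receptor that also exists as a soluble form. Its level was 40.4, 60.0 and 101 CPM in the 3 VAS+H2O libraries and 121, 133 and 137 CPM in the 3 IMQ+H2O libraries. Every model library was above every control library, and the control libraries were spread more widely. The log2 fold change was 0.96 with a 95% interval from 0.17 to 1.74 (edgeR adjusted p 0.172), which was the largest of the 10.

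Kdr encodes the main signalling receptor for VEGF-A. It was counted at 66.0, 75.6 and 105 CPM in VAS+H2O and at 123, 115 and 130.2 CPM in IMQ+H2O. The groups did not overlap, and the log2 fold change was 0.58 (95% interval −0.00082 to 1.15, edgeR adjusted p 0.239). Flt4, the VEGF-C receptor, stood at 95.9, 131 and 117 CPM in VAS+H2O and at 191, 183 and 146 CPM in IMQ+H2O. These groups were also apart, with a log2 fold change of 0.60 (0.018 to 1.18, edgeR adjusted p 0.228). Tek, the angiopoietin receptor, had 39.6, 53.9 and 63.2 CPM in VAS+H2O and 83.9, 76.7 and 81.5 CPM in IMQ+H2O. The model libraries lay close to each other and above the controls, and the log2 fold change was 0.63 (−0.048 to 1.30, edgeR adjusted p 0.267).

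The angiopoietins differed from each other. Angpt2 read 19.5, 23.6 and 31.8 CPM in VAS+H2O and 36.1, 44.3 and 54.7 CPM in IMQ+H2O. The groups did not overlap, and the log2 fold change was 0.85 (95% interval 0.013 to 1.69, edgeR adjusted p 0.233). Angpt1 stood at 9.51, 10.9 and 13.1 CPM in VAS+H2O and at 9.23, 10.6 and 10.8 CPM in IMQ+H2O. Its groups overlapped almost entirely, with a log2 fold change of −0.13 (−0.81 to 0.54, edgeR adjusted p 0.831). Angpt2 lies within Mcph1 on the opposite strand, and how the counting used the strand was not stated, so reads of the pair may not be told apart. Mcph1 itself had 6.26, 8.00 and 7.57 CPM in VAS+H2O and 5.30, 10.3 and 10.6 CPM in IMQ+H2O.

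The ratio of Angpt2 to Angpt1 counts within a library does not depend on the scaling of libraries. It was 2.05, 2.17 and 2.43 in VAS+H2O and 3.91, 4.20 and 5.07 in IMQ+H2O, 1.97-fold higher in the geometric mean. The groups did not overlap, and a two-sided exact permutation test gave p = 0.1, the smallest value that 3 against 3 libraries allow. The ratio of Flt1 to Kdr counts was 0.613, 0.793 and 0.963 in VAS+H2O and 0.985, 1.16 and 1.05 in IMQ+H2O. These groups were apart by a narrow margin (exact permutation p = 0.1, the smallest possible). The ratios were chosen after the counts were seen, and with 3 ratios each compared in 3 ways no adjusted p could reach 0.05. The remaining ratio, Vegfa to Vegfb, overlapped in every comparison (exact permutation p = 0.4 with imiquimod, 1 with XYF, and 0.5 between treated and control libraries).

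The VEGF family ligands showed smaller differences. Vegfa was counted at 42.9, 64.8 and 58.6 CPM in VAS+H2O and at 47.3, 68.7 and 77.0 CPM in IMQ+H2O, and the groups overlapped (log2 fold change 0.22, 95% interval −0.32 to 0.75, edgeR adjusted p 0.637). Vegfb, a ligand of the Flt1 product linked to fatty acid uptake by vessels, stood at 14.9, 16.6 and 18.2 CPM in VAS+H2O and at 16.5, 16.1 and 16.8 CPM in IMQ+H2O. Its difference was the smallest of the 10 and had the narrowest interval (log2 fold change −0.013, −0.29 to 0.27). Vegfc had 10.0, 13.0 and 15.9 CPM in VAS+H2O and 12.0, 14.8 and 8.66 CPM in IMQ+H2O, with overlapping groups (log2 fold change −0.13, −0.70 to 0.44, edgeR adjusted p 0.797). Pgf, which encodes placental growth factor, had 3.93, 5.06 and 6.27 CPM in VAS+H2O and 5.44, 6.53 and 6.69 CPM in IMQ+H2O. These also overlapped, with a log2 fold change of 0.29 (−0.60 to 1.17, edgeR adjusted p 0.706).

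**Figure D2:**
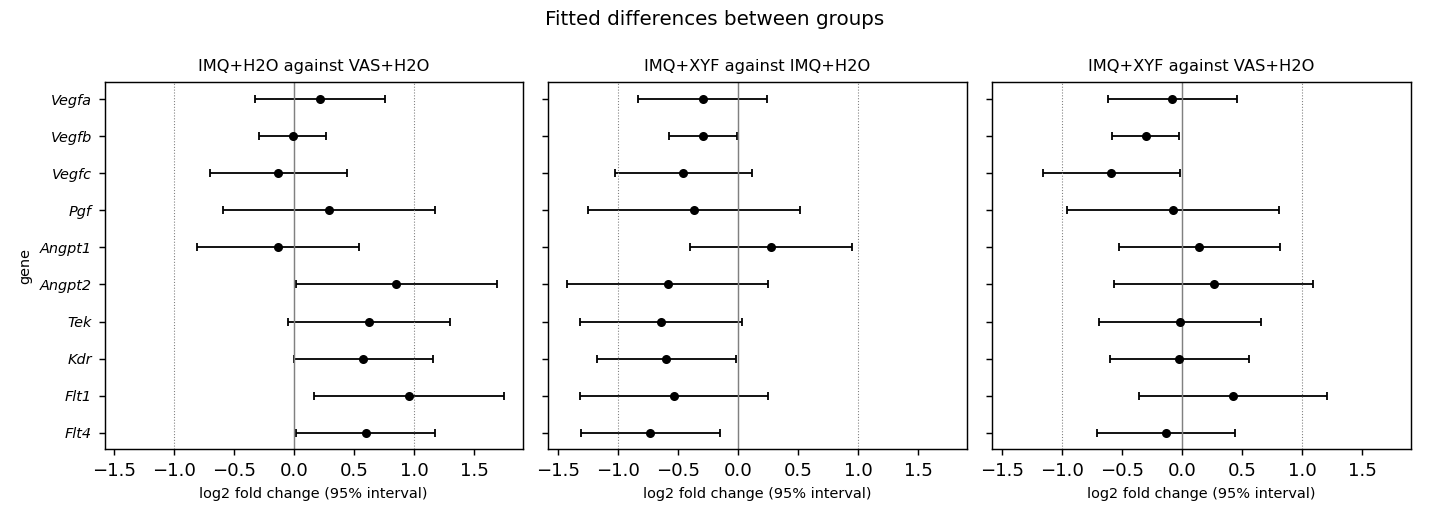
Fitted log2 fold change (x axis) of each of the 10 genes in the 3 comparisons, with 95% intervals from edgeR's quasi-likelihood fit of 9 libraries; dotted lines mark 1 and −1. In the imiquimod comparison the receptors and Angpt2 lie between 0.58 and 0.96, and in the XYF comparison every gene but Angpt1 lies below 0.

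The second question was what XYF changed beside imiquimod. No gene of the system was called between IMQ+XYF and IMQ+H2O, against 0.00892% of all genes, and DESeq2 called none either. Of the 10 log2 fold changes, 9 were below 0, with a median of −0.49 against 0.0054 for all genes. Without IMQ+XYF replicate 2 the median of the 10 was −0.28. At an unadjusted p under 0.05, 3 genes were lower (Vegfb, Kdr and Flt4) and 0 higher, where 5.39% of all genes were lower and 6.35% higher. The groups did not overlap for 4 genes, all lower in IMQ+XYF (Vegfb, Tek, Kdr and Flt4), against 8.74% of all genes lower and 9.22% higher. Without replicate 2 the groups did not overlap for 4 of the 10 and for 34.4% of all genes in either direction. This comparison shares the IMQ+H2O libraries with the one before, so opposite signs in both are not independent of each other.

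Kdr had 76.8, 54.7 and 111 CPM in the 3 IMQ+XYF libraries, and all 3 lay below the lowest IMQ+H2O library. Its log2 fold change was −0.60 (95% interval −1.18 to −0.021, edgeR adjusted p 0.416), and it was −0.35 without IMQ+XYF replicate 2. Flt4 stood at 103, 66.7 and 143 CPM in IMQ+XYF, with replicate 3 only just below the lowest IMQ+H2O library. The log2 fold change was −0.73 (−1.31 to −0.15, edgeR adjusted p 0.379) and −0.46 without replicate 2, the furthest from 0 of the 10 in both fits. Tek was counted at 50.7, 29.7 and 74.6 CPM, below every IMQ+H2O library (log2 fold change −0.64, −1.32 to 0.032, edgeR adjusted p 0.437), and at −0.34 without replicate 2. Flt1 had 92.7, 56.3 and 121 CPM, and its replicate 3 reached the level of the lowest IMQ+H2O library. The log2 fold change of Flt1 was −0.53 (−1.32 to 0.25, edgeR adjusted p 0.550), and −0.26 without replicate 2.

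The values of both angiopoietins changed with the library left out. Angpt2 had 34.1, 13.9 and 41.9 CPM in IMQ+XYF, where replicates 1 and 3 were within or next to the range of the model and replicate 2 was the lowest of all 9 libraries. Its log2 fold change was −0.59 (95% interval −1.42 to 0.25, edgeR adjusted p 0.540) and −0.22 without replicate 2. Angpt1 had 7.06, 17.9 and 12.1 CPM, and here replicate 2 was the highest of the 9 and replicate 1 the lowest. The log2 fold change of Angpt1 was 0.28 (−0.40 to 0.95, edgeR adjusted p 0.730) and turned to −0.065 without replicate 2. Over all libraries left out 1 at a time, it ranged from −0.065 to 0.56, and that of Angpt2 from −0.90 to −0.22. The ratio of Angpt2 to Angpt1 counts was 4.83, 0.776 and 3.46 in IMQ+XYF. A pair of these libraries sat above all controls and replicate 2 sat below them, and the group overlapped IMQ+H2O (exact permutation p = 0.4) and VAS+H2O (exact permutation p = 1). The mean log2 difference from IMQ+H2O was −0.89, and −0.094 without replicate 2. The Flt1 to Kdr ratio did not show this split, at 1.21, 1.03 and 1.09, above all controls (exact permutation p = 0.1, the smallest possible) and overlapping IMQ+H2O (exact permutation p = 0.6).

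**Figure D3:**
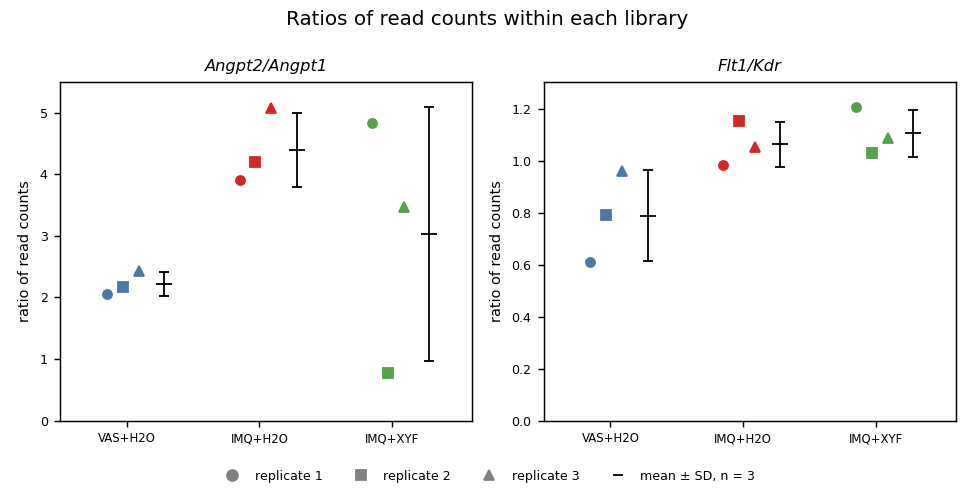
Ratio of Angpt2 to Angpt1 read counts (left) and of Flt1 to Kdr read counts (right) in each library (y axes from 0), with mean ± SD of 3 libraries in black. The Angpt2 to Angpt1 ratio of IMQ+XYF replicate 2 is 0.776, whereas the other 8 libraries lie between 2.05 and 5.07.

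Among the ligands, Vegfb had the tightest values. It stood at 11.9, 14.4 and 14.1 CPM in IMQ+XYF, below every IMQ+H2O and every VAS+H2O library, with a log2 fold change of −0.29 (95% interval −0.57 to −0.0092, edgeR adjusted p 0.417). Leaving out IMQ+XYF replicate 2 gave −0.31 for Vegfb. Vegfc had 8.54, 6.89 and 10.4 CPM in IMQ+XYF and overlapped IMQ+H2O through a single model library (log2 fold change −0.46, −1.03 to 0.12, edgeR adjusted p 0.498, and −0.29 without replicate 2). Vegfa had 56.1, 39.2 and 62.0 CPM and overlapped the model (log2 fold change −0.30, −0.83 to 0.24, edgeR adjusted p 0.631), with −0.098 without replicate 2. Pgf had 5.09, 2.12 and 7.29 CPM, so its highest and its lowest value of the 9 libraries both fell in IMQ+XYF. Its log2 fold change was −0.36 (−1.25 to 0.52, edgeR adjusted p 0.728) and 0.018 without replicate 2.

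Markers of keratinocytes, skeletal muscle and cartilage also differed between IMQ+XYF and IMQ+H2O at an unadjusted p under 0.05, but edgeR called 0 of them. Of all genes, 6.35% were higher and 5.39% lower at that limit. All 8 keratinocyte genes were higher at an unadjusted p under 0.05 (median log2 fold change 1.46). For 3 of the 8 the groups did not overlap, against 9.22% of all genes higher. Their summed level was 3923 to 14766 CPM in IMQ+XYF, 2209.9 to 3356 in IMQ+H2O and 3126 to 5848 in VAS+H2O. All 8 skeletal muscle genes had a log2 fold change below 0 (median −1.71), and 6 were lower at an unadjusted p under 0.05. Their summed levels were 116 to 852 CPM in IMQ+XYF, 1224 to 2631 in IMQ+H2O and 537 to 2559 in VAS+H2O. All 4 cartilage genes were above 0 with XYF (median 1.47), 3 of them at an unadjusted p under 0.05. With imiquimod all 4 were lower at that limit (median −1.72), against 10.8% of all genes, and 1 was called. Their summed levels were 842 to 2263 CPM in IMQ+XYF, 422 to 737 in IMQ+H2O and 1350.4 to 3251 in VAS+H2O. The 8 pericyte genes had medians of −0.092 with imiquimod and −0.41 with XYF, and the 8 macrophage genes 0.45 and −0.51. The 6 fibroblast genes had medians of −0.47 and −0.099, the 4 mast cell genes 0.12 and −0.58, and the 4 adipocyte genes −0.0082 and 0.11. None of these genes was at 0 in any library. Among the marker genes named in every case, Krt14, a keratin of basal epidermis, had a log2 fold change of 1.38 with XYF (edgeR adjusted p 0.364), Acta1, the actin of skeletal muscle, −1.74 (edgeR adjusted p 0.386), and Col1a1, a collagen of fibroblasts, −0.55 (edgeR adjusted p 0.656). The part of these tissues in the values of the VEGF and angiopoietin genes was not tested.

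The third comparison set the treated group against the control. None of the 10 was called, against 1.2% of all genes. At an unadjusted p under 0.05, Vegfb and Vegfc were lower and 0 genes were higher, where 8.76% of all genes were lower and 9.58% higher. The groups did not overlap for Vegfb alone, which was lower in IMQ+XYF, against 10.3% of all genes lower and 11.7% higher. Its log2 fold change was −0.30 (95% interval −0.59 to −0.022, edgeR adjusted p 0.237). That of Vegfc was −0.59 (−1.16 to −0.017, edgeR adjusted p 0.259). For the receptors the values were −0.016 for Tek, −0.022 for Kdr, −0.13 for Flt4 and 0.42 for Flt1, none of which passed an unadjusted p of 0.05. Their 95% intervals together spanned −0.71 to 1.21. Without IMQ+XYF replicate 2, Tek stood at 0.31, Kdr at 0.24, Flt4 at 0.15 and Flt1 at 0.72, and the median of the 10 turned from −0.048 to 0.20.

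Endothelial marker genes were higher in the same group as the receptors. Of the 13 endothelial marker genes, 10 were higher in IMQ+H2O than in VAS+H2O at an unadjusted p under 0.05, against 10.1% of all genes. Of these 10, 2 were called, against 0.994% of all genes, and the median log2 fold change of the 13 was 0.86. The called genes were Ecscr, an endothelial surface protein (log2 fold change 1.38, edgeR adjusted p 0.0329), and Plvap, a protein of the diaphragms of fenestrated vessels (1.55, edgeR adjusted p 0.0490). Both calls were lost without any 1 VAS+H2O or IMQ+H2O library, at an edgeR adjusted p of 0.0819 to 0.127 for Ecscr and 0.0846 to 0.158 for Plvap, and that of Plvap also without IMQ+XYF replicate 1 (0.0550) and with no filter on low counts (0.0521). Eng, a co-receptor for TGF-β family ligands, had the next lowest p (1.16, edgeR adjusted p 0.0691), and was called without IMQ+XYF replicate 2 (edgeR adjusted p 0.0250) and by DESeq2 (adjusted p 0.00139). The junction genes Pecam1 and Cdh5 had 0.85 (edgeR adjusted p 0.175) and 0.84 (edgeR adjusted p 0.182). Summed over the 13 genes, the level was 854 to 1252 CPM in VAS+H2O, 1908 to 2033 in IMQ+H2O, and 1296, 815 and 1771 CPM in IMQ+XYF replicates 1, 2 and 3. With XYF the median was −0.67 and 6 of the 13 were lower at an unadjusted p under 0.05, against 5.39% of all genes. None of the 13 was called. These values include IMQ+XYF replicate 2, which had the lowest summed level of the 9 libraries. Cldn5, a tight junction protein (−0.77), Mmrn2 (−0.81) and Egfl7 (−0.67), both proteins of the vessel wall matrix, had the lowest p there, at edgeR adjusted p between 0.367 and 0.396.

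**Figure D4:**
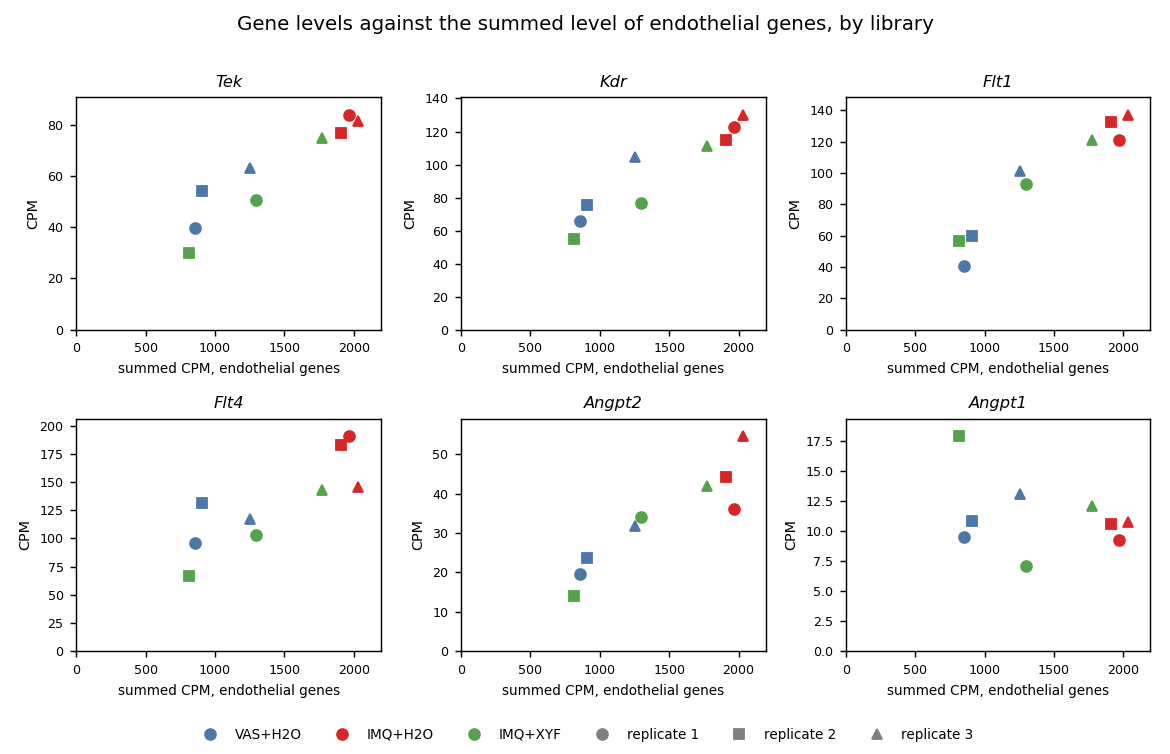
CPM of the 4 receptors and both angiopoietins (y axes) against the summed CPM of 13 endothelial genes (x axes), 1 point per library, coloured by group. The receptors and Angpt2 are higher in libraries with a higher endothelial level, whereas Angpt1 is highest in the library with the lowest endothelial level.

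Across the 9 libraries, Pearson's r of log2 CPM with the mean of the 13 endothelial genes was 0.95 for Kdr, 0.93 for Flt1, 0.93 for Angpt2, 0.92 for Tek and 0.84 for Flt4. It was 0.78 for Pgf, 0.59 for Vegfa and −0.31 for Angpt1. These values describe 9 points that share groups and scaling, and they carry no test. Kdr and Tek were the most alike pair of the 10 (r = 0.98). Among 13666 other genes, the closest to Tek were Tie1 (r = 0.988), its sister receptor, then Sh3bp5 and Spns2. Closest to Kdr were Ptprb (0.989), an endothelial phosphatase that acts on the Tek product, Cd93 (0.988), an endothelial surface protein, and Pdia5 (0.988). Angpt2 was closest to Cdh5 (0.967), Xdh and Col18a1, Flt1 to Mcam (0.975), B3gnt3 and Sema7a, and Flt4 to Myzap (0.975), Mgat4b and Gimap5. The closest to the ligands were other genes, with Rhoh (0.996) for Vegfa, Map2k5 (0.962) for Vegfb, Myb (0.959) for Vegfc and Clec1a (0.963) for Pgf. Angpt1 was most like Cul7 (0.949), Pparg and Neat1.

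**Figure D5:**
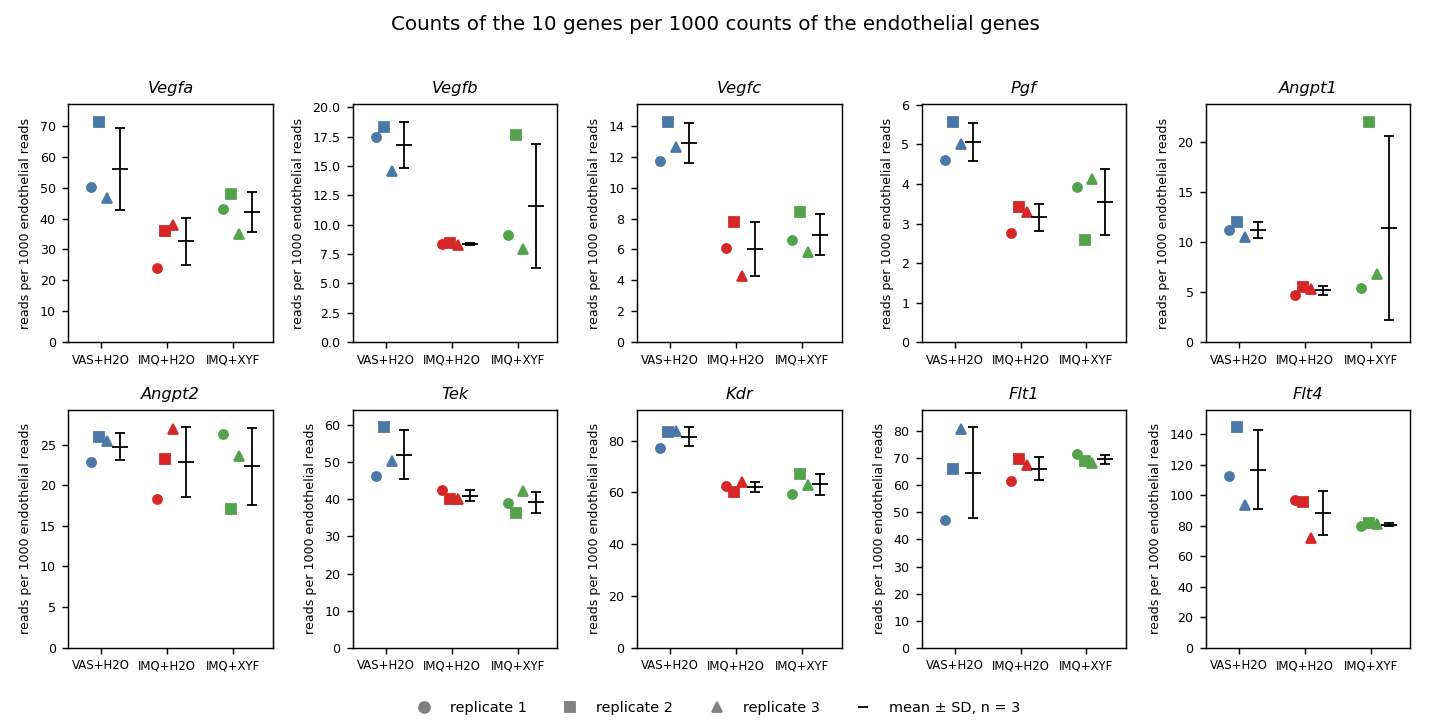
Counts of each of the 10 genes per 1000 counts of the 13 endothelial genes (y axes from 0), by library and group, with mean ± SD of 3 libraries in black. For Kdr the VAS+H2O libraries lie between 77.2 and 83.7 and the other 6 between 59.3 and 67.1. For Tek, Vegfc and Pgf the other 6 also lie below every VAS+H2O library, whereas Angpt2 and Flt1 overlap between VAS+H2O and IMQ+H2O.

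Per 1000 endothelial counts, Flt1 was 47.3, 66.1 and 80.7 in VAS+H2O, 61.4, 69.6 and 67.5 in IMQ+H2O and 71.6, 69.1 and 68.4 in IMQ+XYF, and Angpt2 overlapped among all 3 groups. Kdr was 77.2, 83.4 and 83.7 in VAS+H2O, 62.3, 60.2 and 64.1 in IMQ+H2O and 59.3, 67.1 and 62.9 in IMQ+XYF. It was thus lower in both imiquimod groups without overlap, and so were Tek, Vegfc and Pgf. Angpt1 was 11.1, 12.0 and 10.5 in VAS+H2O, 4.69, 5.53 and 5.31 in IMQ+H2O and 5.44, 22.0 and 6.83 in IMQ+XYF, where replicate 2 again stood apart. Scaling to these counts took the median log2 fold change of all genes between IMQ+H2O and VAS+H2O from −0.023 to −1.03. Under it 3 of the 10 (Vegfb, Vegfc and Angpt1) were called lower in IMQ+H2O, against 43.8% of all genes called, and 7 of the 10 were lower without overlap, against 70.2% of all genes. These shares of the 10 are near those of all genes, and the log2 fold changes of the 3 called, −1.01, −1.09 and −1.11, lay close to that median. Kdr had −0.39, above that median. Between IMQ+XYF and VAS+H2O, 10.9% of all genes did not overlap under this scaling, in either direction.

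Lymphatic endothelium was followed through 6 genes beside Flt4. The median log2 fold change of the 6 with imiquimod was 0.27, and 0 were called. At an unadjusted p under 0.05, 2 of the 6 were higher, against 10.1% of all genes. They were Pdpn, a membrane glycoprotein that keratinocytes and fibroblasts can also make (1.19, edgeR adjusted p 0.0707), and Lyve1, a hyaluronan receptor also found on macrophages (0.84, edgeR adjusted p 0.155). Pdpn was called without IMQ+XYF replicate 2 (edgeR adjusted p 0.0403) and by DESeq2 (adjusted p 0.00162). Prox1, the transcription factor of lymphatic identity, had 0.25 (edgeR adjusted p 0.574). With XYF 4 of the 6 were below 0, 2 of them at an unadjusted p under 0.05, against 5.39% of all genes lower. These 2 were Prox1 at −0.77 (edgeR adjusted p 0.364) and Reln at −0.75 (edgeR adjusted p 0.375), and Mmrn1 had −0.57 (edgeR adjusted p 0.449). The median with XYF was −0.50. Summed over the 6 genes, the level was 960, 651 and 1337 CPM in IMQ+XYF replicates 1, 2 and 3. It was 795 to 1026 CPM in VAS+H2O and 1084 to 1380 CPM in IMQ+H2O, so IMQ+XYF overlapped both groups.

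Partners and targets of the pathway were described through 38 further genes in 3 lists. With imiquimod 1 of the 38 was called, against 0.994% of all genes. It was Nos3, the endothelial nitric oxide synthase that acts downstream of the Kdr product. Nos3 had 26.7, 33.1 and 44.5 CPM in VAS+H2O, 91.1, 94.7 and 99.8 CPM in IMQ+H2O and 57.9, 38.3 and 84.7 CPM in IMQ+XYF. Every model library was above the highest control, and the log2 fold change was 1.45 (edgeR adjusted p 0.0478), just inside the threshold. Leaving out any 1 VAS+H2O or IMQ+H2O library, or IMQ+XYF replicate 1, left 0 of the 38 called, with an edgeR adjusted p for Nos3 between 0.0544 and 0.159. Scaled to endothelial counts, Nos3 had 0.49 (edgeR adjusted p 0.133). The 13 partners had a median of 0.31. At an unadjusted p under 0.05, 4 were higher and 2 lower, against 10.1% and 10.8% of all genes. The lower ones were Adamts3, the protease that activates VEGF-C (−1.07, edgeR adjusted p 0.111), and Foxo1, a transcription factor held back by Tek signalling (−0.37, edgeR adjusted p 0.0920).

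With XYF none of the 38 was called. Among the partners 5 were lower and 2 higher at an unadjusted p under 0.05, against 5.39% and 6.35% of all genes. Angpt4, another angiopoietin ligand of the Tek product, had the lowest p, with 10.4, 7.79 and 9.32 CPM in IMQ+H2O and 10.9, 39.5 and 27.0 CPM in IMQ+XYF (log2 fold change 1.49, edgeR adjusted p 0.364). The VAS+H2O libraries had 19.6, 11.8 and 16.8 CPM, above all of IMQ+H2O and above IMQ+XYF replicate 1, and IMQ+XYF replicate 2 had the highest value of the 9. Ptprb (−0.85, edgeR adjusted p 0.378) and Plcg1, a phospholipase that VEGF receptors activate (−0.29, edgeR adjusted p 0.371), were lower.

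A list of 11 genes that respond to VEGF or Notch in endothelium had 0 called with imiquimod. At an unadjusted p under 0.05, 2 were higher and 3 lower, against 10.1% and 10.8% of all genes. Rcan1 and Egr3 had the highest levels of the 11, with means of 185 and 130 CPM in VAS+H2O. Which cells of the dermis these transcripts came from was not tested. Notch4, a Notch receptor of endothelium, had 10.6, 6.17 and 12.1 CPM in VAS+H2O and 25.3, 29.8 and 24.8 CPM in IMQ+H2O (log2 fold change 1.46, edgeR adjusted p 0.0775), and was called without IMQ+XYF replicate 2 (edgeR adjusted p 0.0254) and by DESeq2 (adjusted p 0.00176). Unc5b, a guidance receptor of arteries and tip cells (−0.59, edgeR adjusted p 0.0831), and Rcan1, an inhibitor of calcineurin (−0.70, edgeR adjusted p 0.176), went the other way. With XYF 9 of the 11 were below 0, with a median of −0.63. At an unadjusted p under 0.05, 4 were lower and 0 higher, against 5.39% and 6.35% of all genes. The 4 lower genes were Esm1 (−1.14, edgeR adjusted p 0.364), the Notch effectors Hey2 (−0.99, edgeR adjusted p 0.386) and Hey1 (−0.88, edgeR adjusted p 0.387), and Notch4 (−0.88, edgeR adjusted p 0.396). Esm1 encodes a secreted proteoglycan of tip cells that VEGF induces. It was the 1 gene of the 38 called between IMQ+XYF and VAS+H2O, against 1.2% of all genes. It was low throughout, with 1.63, 2.33 and 2.48 CPM in VAS+H2O, 1.45, 0.898 and 1.17 CPM in IMQ+H2O and 0.485, 0.366 and 0.731 CPM in IMQ+XYF. Its log2 fold change against the control was −2.02 (edgeR adjusted p 0.0326). Leaving out 1 library left 0 of the 38 called for 7 of the 9 libraries. The exceptions were IMQ+H2O replicate 1 (1 called) and IMQ+XYF replicate 2 (3 called). The share of all genes called was not computed for these fits of IMQ+XYF against VAS+H2O. At an unadjusted p under 0.05 in that comparison, 3 of the 13 endothelial genes were higher and 0 lower. Of all genes, 9.58% were higher and 8.76% lower.

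Hypoxia regulates Vegfa, so 14 regulators and targets of the hypoxia response were counted. Their median log2 fold change with imiquimod was 0.14. At an unadjusted p under 0.05, 3 were higher and 0 lower, against 10.1% and 10.8% of all genes. Pgk1 had 0.73 (edgeR adjusted p 0.0658) and Ldha 0.44 (edgeR adjusted p 0.182), both glycolytic enzymes, and Hif1a, the oxygen-sensitive factor, had 0.44 (edgeR adjusted p 0.219). With XYF 1 of the 14 was higher and 0 lower at an unadjusted p under 0.05, against 6.35% and 5.39% of all genes. The higher 1 was the glucose transporter gene Slc2a1 (0.41, edgeR adjusted p 0.364). Epas1 had −0.35 (edgeR adjusted p 0.459) and Ankrd37 −0.50 (edgeR adjusted p 0.521).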

How the data were processed

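Messenger RNA was measured in 9 libraries of mouse ear dermis. The deposited values are whole-number read counts per Ensembl gene, not normalized. According to the study's methods and the submitters' processing notes, the authors aligned reads with STAR 2.5 to GRCm38. The counting tool, its use of the strand and its treatment of multiply aligned reads were not given in the sources used here. Libraries were grouped by their titles.

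Counts were filtered by filterByExpr, scaled by TMM and fitted for all 9 libraries at once with the quasi-likelihood test of edgeR 4.0.16 (R 4.3.3, Benjamini-Hochberg adjustment over 22430 genes). A gene was called at an adjusted p of 0.05 or lower and an absolute log2 fold change of 1 or higher. Intervals are 95% intervals of the fit. Ratios of counts were compared by exact permutation tests. Log2 fold changes of the VEGF and angiopoietin genes and of other named genes were recomputed with other settings, as were calls of pathway genes. The settings were DESeq2 1.42.0 (Wald test), other scalings, no filter, the compared groups alone, a replicate term, and leaving out each library. Calls alone were also recomputed with no minimum fold change. No recomputed values are given for correlations, likeness or the medians of marker lists. Annotation was GENCODE vM21, and promoter windows were RefSeq's. Total counts of 28756305 to 79836881 put 3 counts, the floor for a gene not seen, between 0.0376 and 0.104 CPM, which covers counting error only.

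The 10 genes and the lists were chosen with earlier results of these data known. All 10 were named, and of each list up to 3 genes with the lowest unadjusted p in the change by imiquimod and in the change by XYF. Pecam1, Cdh5, Lyve1, Prox1, Col1a1, Krt14 and Acta1 were named in every case. For likeness, the 3 genes with the highest Pearson r of log2 CPM (prior count 2) were named, among genes averaging 100 scaled counts or more without a Gm or Rik symbol. The ratios of counts, and the counts of genes at an unadjusted p or without overlap, were added after the data were seen.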

Additional observations from a re-analysis of the deposited data

How the results depend on the processing

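Of the log2 fold changes of the 10 genes under 15 alternatives, 134 of 150 with imiquimod kept direction and side of the threshold, 142 of 150 with XYF and 128 of 150 for IMQ+XYF against VAS+H2O. Every one of the 10 had at least 104 counts in each library. The share of all genes called was computed for no alternative but scaling to endothelial counts with imiquimod. Other counts of called genes below therefore have no background to be read against. The cause of the shifts below was not tested, except that scaling to endothelial counts shifts every gene by construction.

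With DESeq2's Wald test, 5 of the 10 were under an unadjusted p of 0.05 with imiquimod, against 14.9% of all genes. DESeq2 was run without the filter on low counts, so its share includes genes with few counts. For edgeR on the filtered genes the share was 20.9%. Of the 38 pathway genes, 3 were called with imiquimod (Nos3, Notch4 and Adamts3) and 1 with XYF (Angpt4). The share of all genes called by DESeq2 was not computed. Krt14 was called with XYF too, at 1.40 (DESeq2 adjusted p 0.0295). Vegfb with imiquimod had 0.0073, and Tek and Kdr against the control 0.016 and 0.0098. With DESeq2's size factors in edgeR these 3 values were 0.015, 0.011 and 0.0052. Of the 10, 1 was then under 0.05 against the control, as were 18.4% of all genes. With no filter 0 pathway genes were called with imiquimod. Against the control, 1 of the 10 and 12.3% of all genes were then under 0.05, and Tek had 0.00066. With only the groups compared, 2 pathway genes were called with imiquimod and 0 against the control. Eng and Pdpn were called with imiquimod too (edgeR adjusted p 0.0241 and 0.0380). Of the 10, 5 and 1 were then under 0.05 in these comparisons, against 24.9% and 15.8% of all genes. Vegfb with imiquimod had 0.016 and Tek against the control 0.0044. With no minimum fold change 2 pathway genes were called against the control.

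With a replicate block, 0 pathway genes were called with imiquimod and 0 against the control. In the 3 comparisons 4, 4 and 1 of the 10 were under 0.05, against 18.2%, 9.86% and 16.3% of all genes. Libraries with the same number shared only that number, since their deviations correlated between −0.18 and 0.12. None of the 10 was called with the block.

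Scaled to endothelial counts, 3 of the 10 and 12 of the 38 pathway genes were called with imiquimod, against 43.8% of all genes. With XYF 1 of the 10 was under 0.05 and 0 did not overlap, against 40.6% and 42.4% of all genes. Against the control 1 was under 0.05 and 5 did not overlap, against 9.77% and 10.9% of all genes. The median of all genes moved to −1.03 with imiquimod, 0.75 with XYF and −0.28 against the control. With imiquimod, Vegfa then had −0.78, Pgf −0.68, Angpt2 −0.12, Tek −0.35, Kdr −0.39, Flt4 −0.40, Pecam1 −0.12, Cdh5 −0.12, Lyve1 −0.18, Prox1 −0.72, Acta1 −0.90, Pgk1 −0.29, Ldha −0.58 and Hif1a −0.56. With XYF, Vegfa had 0.37, Vegfb 0.47, Vegfc 0.21, Pgf 0.17, Kdr 0.020, Flt1 0.074, Cdh5 0.019, Lyve1 0.19, Col1a1 0.00014, Plcg1 0.48, Epas1 0.35, Ankrd37 0.22 and Mmrn1 0.013. Angpt2 against the control had −0.15.

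Leaving out 1 library at a time gave 0 to 5 of the 10 under 0.05 with imiquimod (0 without VAS+H2O replicate 1). The range was 0 to 4 with XYF (0 without IMQ+H2O replicate 1 or 2) and 0 to 2 against the control (0 without VAS+H2O replicate 2, IMQ+H2O replicate 1 or IMQ+XYF replicate 1). Of all genes, 14.8% to 23.7%, 8.01% to 14.1% and 14.4% to 22.8% were under 0.05 in these 3 comparisons. Groups did not overlap for 4 to 8 of the 10 with XYF, with 8 without IMQ+XYF replicate 3 (27.8% of all genes) and 7 without IMQ+H2O replicate 1 (27.1%), against 18% of all genes with every library. The count was 1 to 2 against the control, where 21.7% to 39% of all genes did not overlap. Pathway genes called ranged from 0 to 2 with imiquimod and 0 to 3 against the control. The log2 fold changes that turned ranged, with imiquimod, from −0.087 to 0.058 for Vegfb, −0.34 to 0.070 for Vegfc and −0.18 to 0.72 for Acta1. With XYF they ranged from −0.78 to 0.018 for Pgf and −0.065 to 0.56 for Angpt1. Against the control they ranged from −0.23 to 0.14 for Vegfa, −0.49 to 0.33 for Pgf, −0.17 to 0.42 for Angpt1, −0.054 to 0.65 for Angpt2, −0.38 to 0.31 for Tek, −0.32 to 0.24 for Kdr and −0.43 to 0.15 for Flt4. IMQ+XYF replicate 2 gave the upper end for Vegfa, Pgf, Angpt2, Tek, Kdr and Flt4 there.

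Per kilobase of the longest transcript, control levels were 16.1 CPM for Vegfa, 13.0 for Vegfb, 2.45 for Pgf, 2.62 for Angpt1, 13.9 for Kdr, 9.74 for Flt1 and 18.3 for Flt4.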
